A study of Sus scrofa with 12 samples.

Results

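The genes described here are 9 transcription factor genes of the myogenic programme: the myogenic regulatory factors *MYOD1*, *MYF5*, *MYF6* and *MYOG*, the MEF2 genes *MEF2A*, *MEF2C* and *MEF2D*, the satellite cell factor *PAX7* and the homeobox gene *SIX4*. They were chosen by name, and they are 9 of the 28210 RefSeq genes on the pig chromosomes used (Sscrofa11.1). For each gene, the loops anchored no more than 1 kb from a gene end, the RNA that the gene itself puts on chromatin and the RNAs found on DNA bins within 5 kb of a gene end were collected in every library.

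The data came from longissimus muscle of 2-week-old piglets of a commercial lean breed, Large White (LW), and a Chinese local breed, Meishan (MS), with no further treatment in either group. H3K27ac BL-HiChIP, which ligates neighbouring chromatin fragments and selects those that carry an active histone mark, gave 2 libraries per breed. GRID-seq, which ligates RNA to the DNA beside it, also gave 2 libraries per breed. The methods mention 2 male piglets but leave unclear whether this is the number per breed, and whether the replicates of a breed come from different piglets is not stated, so every p-value below measures the spread between these libraries, which may be technical, and both breeds are whole muscle in which several cell types are mixed.

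Myogenic regulatory factors are basic helix-loop-helix proteins that bind E-boxes together with E proteins and can turn other cells into muscle. *MYF5* and *MYOD1* mark commitment to the lineage, *MYOG* drives the fusion and differentiation of myoblasts, and *MYF6* (also called MRF4) is the family member that mature fibres keep. MEF2 proteins bind AT-rich sites in muscle genes beside these factors and are held back by class IIa histone deacetylases, the sine oculis homeobox proteins, to which *SIX4* belongs, act upstream of the myogenic factors with EYA cofactors, and *PAX7* keeps the satellite cells, the stem cells of adult muscle.

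The loop lists held 57028 and 43282 loops in LW replicates 1 and 2 and 45061 and 33353 loops in MS replicates 1 and 2. The GRID-seq lists held between 519 and 681 chromatin RNAs per library, with between 7172517 and 9943666 RNA reads on them, and started at 432 to 455 reads. All 12 skeletal muscle fibre markers examined had a loop at a gene end in every library, and 7 of them were listed as chromatin RNAs in every library. None of the adipocyte, endothelial, smooth muscle and immune markers was listed as a chromatin RNA in any library. Markers of these other cell types did have loops at gene ends. Of 4 endothelial markers, 3 had a loop in both LW libraries and MS replicate 1, and 4 in MS replicate 2. Per library, 1 to 3 of 3 smooth muscle markers, 1 or 2 of 3 immune markers and 3 to 5 of 5 fibroblast markers had a loop. Of 4 adipocyte markers, 1 had a loop, in MS replicate 1 alone. Of 5 further satellite cell markers, *CDH15*, the muscle cadherin, was the only one listed, in both LW libraries and in neither MS library, and *CALCR*, *NCAM1* and *VCAM1* had no loop at a gene end in any library.

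The 9 genes differed widely in how many H3K27ac loops reached their ends. *SIX4*, *MYOD1*, *MYOG* and *MYF6* had at least 5 loops in every library, *MEF2C* had 1 to 7, *MEF2D* had 0 to 2, *PAX7* had loops in LW alone, *MYF5* had a single loop in a single library, and *MEF2A* had none. Each loop was given a strength, the −log10 of its listed FDR, and the interaction score of a gene as the sum of this strength over its loops. By the mean of the 4 libraries the order of the scores was *SIX4*, *MYOD1*, *MYOG*, *MYF6*, *MEF2D*, *MEF2C*, *PAX7*, *MYF5* and *MEF2A*. Neighbours in this order overlapped between libraries, and the replicate 2 library gave the higher score in both breeds for *SIX4*, *MYOD1*, *MYOG*, *MYF6*, *MEF2C* and *MEF2D*, as the plot of the scores shows.

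**Figure D1:**
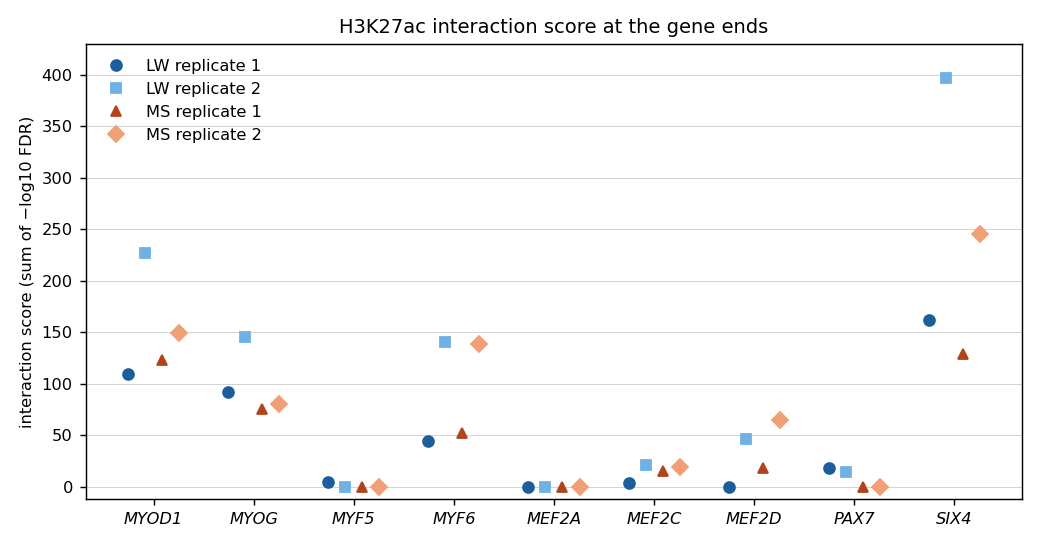
The interaction score at the ends of each of the 9 genes (vertical axis, sum of −log10 FDR over loops, linear scale) is plotted with 1 point per BL-HiChIP library and no averaging. *SIX4* lies highest, from 128 in MS replicate 1 to 397 in LW replicate 2, *MEF2A* lies at 0 in all libraries, and *PAX7* is above 0 in both LW libraries and at 0 in both MS libraries.

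*SIX4*, on chr1:189670390-189682378, had 11 and 19 loops in LW against 11 and 13 in MS. Its interaction score was 162 and 397 in LW against 128 and 245 in MS. Among the 15431 genes with a loop at an end in at least 1 library, between 99.3% and 99.8% had a lower score than *SIX4* in each library. The breeds overlapped, and the difference in score was 0.29 on the log2 scale (SE 0.77, adjusted p = 1.00, limma with Benjamini-Hochberg adjustment).

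Of the 25 distinct *SIX4* loops, 6 were called in all 4 libraries. The strongest spanned 50 kb towards lower coordinates, with a strength of 53.7 and 120 in LW against 40.1 and 62.3 in MS.

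Towards higher coordinates, *SIX4* loops crossed the neighbouring genes. A loop of 355 kb, whose far anchor held no gene end, had a strength of 24.2 and 67.9 in LW against 16.8 and 51.6 in MS. A loop of 240 kb to the facing ends of *TRMT5*, a tRNA methyltransferase, and *SLC38A6*, a member of an amino acid transporter family, was called in 3 libraries at 13.0, 20.2 and 21.5 and was missing in MS replicate 1. A loop of 225 kb to *TRMT5* and *MNAT1*, which assembles the CDK-activating kinase, was called in 3 libraries at 2.29, 2.86 and 6.44, and MS replicate 2 had in its place a loop of 230 kb at 10.3, from the same *SIX4* bin to the bin next to that anchor. All 13 *SIX4* loops that were called in more than 1 library were called in both breeds.

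*MYOD1*, on chr2:41422522-41424236, had 5 and 8 loops in LW and 8 in either MS library. Its interaction score was 110 and 227 in LW against 123 and 150 in MS, so the breeds overlapped (log2 difference 0.01, SE 0.76, adjusted p = 1.00, limma). In each library between 98.5% and 99.2% of the genes tested had a lower score. A loop of 120 kb towards higher coordinates was called in all 4 libraries, with a strength of 48.0 and 57.7 in LW against 36.2 and 24.5 in MS. LW values were both above MS values, and how many of all loops show this was not counted. A loop of 5 kb was also called in all 4 libraries, at 4.90, 19.0, 2.51 and 20.0. None of the 7 *MYOD1* loops called in 2 or more libraries had a gene end within 1 kb of its far anchor.

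A pair of *MYOD1* loops, the strongest of the gene in the replicate 2 libraries, differed between the breeds by their anchors and reached the same place. In LW a loop of 40 kb had a strength of 45.0 and 90.7 and was not called in MS, while in MS a loop of 35 kb had a strength of 35.8 and 66.5 and was not called in LW. Both ended in the same far anchor, at chr2:41460001-41465000, and left from adjacent 5-kb bins, one over the gene and one just past its end. Matched by the far anchor alone, *MYOD1* reached 14 places, 4 of them in all 4 libraries, and none was reached in both libraries of only 1 breed.

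*MYOG*, on chr9:113783233-113785312, had 8 and 11 loops in LW against 9 and 10 in MS. The gene crosses the border of 2 of the 5-kb bins, and none of its 24 distinct loops was called with the same pair of bins in all 4 libraries. Matched by the far anchor alone it reached 16 places, 5 of them in all 4 libraries and 11 in both breeds. Its interaction score was 92.3 and 145 in LW against 75.6 and 80.3 in MS, and between 96.1% and 98.1% of the genes tested had a lower score. Both LW libraries lay above both MS libraries, as for 21.1% of the genes tested, and the log2 difference was 0.32 (SE 0.76, adjusted p = 1.00, limma).

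The *MYOG* loops stayed within 145 kb of the gene. The anchor at *CHIT1*, a chitinase gene, was reached in all 4 libraries, at 14.6 and 17.9 in LW over 145 kb and at 11.5 and 8.36 in MS over 140 kb, again from adjacent bins of *MYOG*. The anchor at *ADORA1*, an adenosine receptor gene, was reached at 6.63 and 6.71 in LW and at 9.43 and 2.47 in MS, over 50 or 55 kb. The anchor at LOC110255566, an uncharacterized gene, was reached at 13.7 and 8.81 in LW and at 3.52 and 2.67 in MS, over 30 or 35 kb. The gene of myosin-binding protein H, *MYBPH*, which was singled out after its values were seen, lay at far anchors 90 to 100 kb away. LW replicate 2, over 100 kb at 23.7, and MS replicate 2, over 95 kb at 17.7, reached the same anchor there from adjacent bins of *MYOG*. LW replicate 1 reached another anchor at an end of *MYBPH*, over 90 kb at 16.9, and the loop of MS replicate 1, at 13.4, ended within the gene, away from its ends. Loops of *MYOG* to these neighbours were thus listed in both breeds. Their strengths overlapped for *ADORA1* and were higher in both LW libraries for *CHIT1* and LOC110255566. How many of all loops show such a pattern was not counted.

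*MYF6* and *MYF5* lie side by side, on chr5:100762918-100764771 and chr5:100753440-100755558. *MYF6* had 5 and 6 loops in each breed and an interaction score of 44.7 and 140 in LW against 51.9 and 139 in MS. The replicates of a breed differed more than the breeds did (log2 difference −0.33, SE 0.88, adjusted p = 1.00, limma). *MYF5*, in contrast, had 1 loop in LW replicate 1, of strength 4.38 over 10 kb, and none in the other 3 libraries. That loop ended at *MYF6*, so the only loop listed at *MYF5* was one that joined the 2 genes.

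A pair of *MYF6* loops was called in all 4 libraries. The loop of 20 kb to the end of *PTPRQ*, a receptor-type phosphatase gene known from the inner ear, had a strength of 14.3 and 46.8 in LW against 20.0 and 50.0 in MS. The loop of 60 kb, into *PTPRQ*, had a strength of 20.6 and 57.9 in LW against 24.2 and 52.4 in MS. In both loops the replicate 2 libraries were more than 2 times as strong as the replicate 1 libraries, in either breed. A loop of 475 kb was called at 2.64 and 6.35 in LW and at 7.37 in MS replicate 2.

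**Figure D2:**
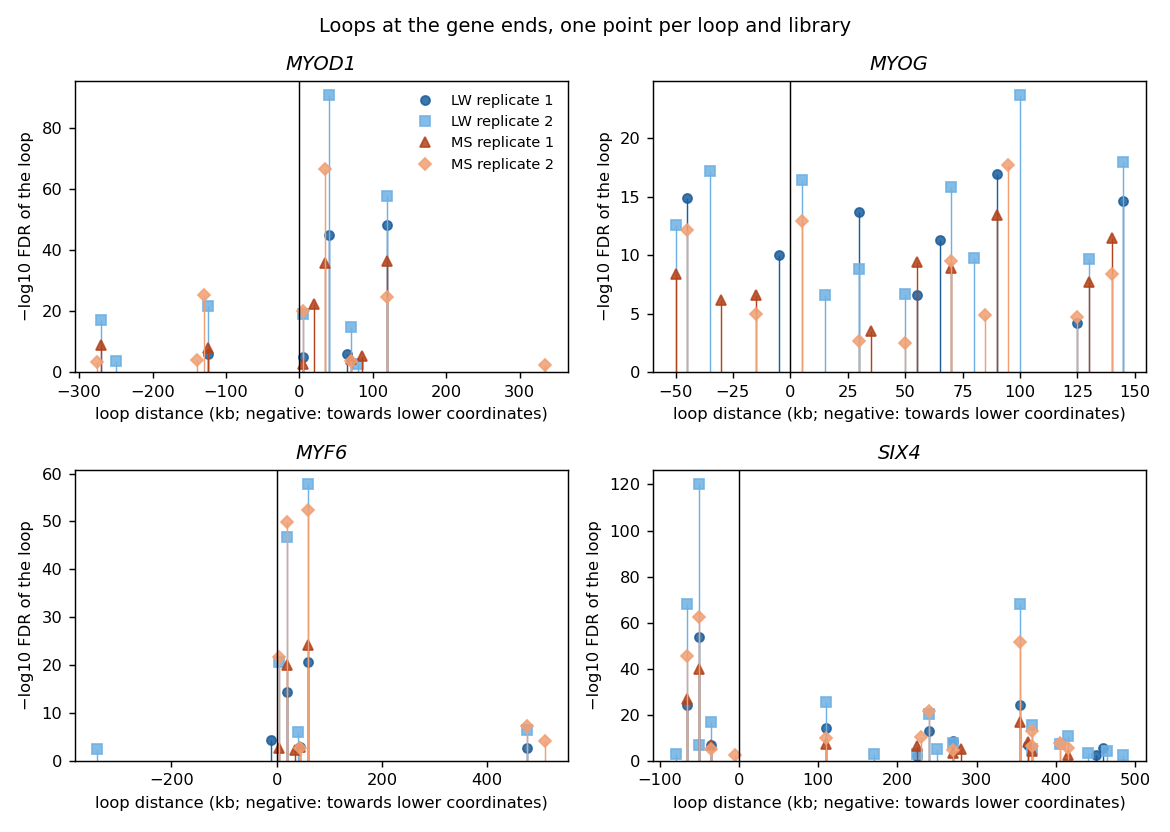
Each loop at an end of *MYOD1*, *MYOG*, *MYF6* and *SIX4* is drawn at its distance from the gene (horizontal axis, kb between anchors, negative towards lower coordinates) and its −log10 FDR (vertical axis, linear scale), with 1 point per loop and library. The *MYOD1* loops that end in the same far anchor stand at 40 kb in LW and 35 kb in MS, *MYOG* loops stay within 145 kb, and the *SIX4* loops at 50 and 355 kb are present in all 4 libraries.

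The MEF2 genes had few loops at their ends. *MEF2A*, on chr1:138398270-138508639, had none in any library. *MEF2C*, on chr2:96122407-96296927, had 1 and 7 loops in LW against 3 and 2 in MS, with a score of 3.84 and 21.0 in LW against 14.7 and 19.3 in MS. The LW libraries lay on either side of both MS libraries (log2 difference −1.27, SE 1.07, adjusted p = 0.992, limma), and leaving out LW replicate 1 turned the difference to 0.10. A loop of 25 kb was called in both LW libraries alone, at 3.84 and 4.35, and a loop of 490 kb in both MS libraries alone, at 3.27 and 6.10. The far anchor of the latter was also reached in both LW libraries from the next bin inside the gene, 495 kb away, at 6.69 and 21.9.

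*MEF2D*, on chr4:93581563-93616980, had a score of 0 and 46.1 in LW against 17.8 and 64.7 in MS, where only LW replicate 1 had no loop. The 3 libraries with a score shared a loop of 5 kb to the uncharacterized gene LOC106510129, at 46.1 in LW and at 14.6 and 64.7 in MS. The breeds overlapped, with a log2 difference of −2.47 (SE 1.72, adjusted p = 0.992, limma), and without LW replicate 1 it was 0.25.

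*PAX7*, on chr6:77160827-77268626, had the smallest p of the members in the interaction score. It had a score of 18.5 in LW replicate 1 and 14.6 in LW replicate 2, and no loop at a gene end in either MS library. Both LW libraries shared a loop of 5 kb, at 14.2 and 14.6. In limma the unadjusted p was 0.00227 and the adjusted p 0.804, so *PAX7* passed the threshold that the study set (a log2 difference above 1.5 with an unadjusted p under 0.05) and did not pass after adjustment over all genes. The study applied that threshold with DESeq2 to scores of active promoters. Here it was applied with limma to both ends of every gene with a loop, so the calls are not comparable. No fold is given because the MS libraries were at 0. Loops in both LW libraries and none in MS were found for 4.32% of the genes tested.

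The *PAX7* difference depended on where the gene end was drawn. In MS, a loop of 5 kb was called 1 bin further into the gene, at 16.7 and 13.8, and this loop was called in neither LW library. With anchors within 5 kb of a gene end in place of 1 kb, the log2 difference of *PAX7* was 0.44 with an unadjusted p of 0.531 in limma. Of the 5 further satellite cell markers, *CDH15* and *SPRY1* had loops in every library, and the summed score of the list was 124 and 136 in LW against 84.2 and 88.7 in MS. *CDH15* alone overlapped, at 37.5 and 22.7 in LW against 33.6 and 4.34 in MS. Fibroblast markers summed to 158 and 187 in LW against 100 and 104 in MS, and endothelial markers to 50.1 and 69.8 against 83.7 and 158. Immune markers were also higher in both MS libraries, while fibre and smooth muscle markers overlapped. The part of these lists in the *PAX7* difference was not tested.

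Across the interaction scores, 1 of the 8 members that could be tested, *PAX7*, passed the study's threshold, against 5.33% of all genes tested, 2.83% higher in LW and 2.50% higher in MS. No gene passed after adjustment in limma, where the smallest adjusted p over all 15431 genes was 0.804 and 822 genes had an unadjusted p under 0.05. DESeq2 on the rounded score also gave 0 genes after adjustment and 275 with an unadjusted p under 0.05. The median log2 difference was 0.15 over the 8 members and 0.02 over all genes, and 5 of the 8 were higher in LW. With 2 libraries per breed, an exact two-sided permutation test of a single gene cannot give a p below 0.333.

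Together the members had 91 distinct loops, of which 41 were called in more than 1 library and 10 in all 4. Loops in all 4 libraries made up 11.0% of the members' loops and 3.78% of all loops in the series. *SIX4* had 6 of the members' loops in all 4 libraries, *MYOD1* and *MYF6* had 2 each, and the other members had none. Of the members' loops, 50.0% of those in LW were also called in MS and 56.9% of those in MS were also called in LW, against 34.7% and 44.2% in the whole series. With each anchor allowed to lie 1 bin away, the shares were 74.2% and 87.9% for the members and 58.7% and 72.8% for the series, and for *MYOG* every loop of either breed had a partner in the other. The members' loops were also stronger than the median loop of the library, at a median of 9.26 and 9.66 in LW against 7.53 and 8.91 in MS, where the library medians were 3.87, 4.24, 3.65 and 4.33. The median distance was 90 kb against 50 kb in the series. These shares are descriptions. The members' loops all lie at gene ends, while the series holds every loop, at a gene end or not, so the sets are unlike. How far the strength of the members' loops goes with their recurrence was not tested.

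Turning to RNA on chromatin, *MYOD1*, *MEF2C* and *MEF2D* were listed as chromatin RNAs, and *MYOG*, *MYF5*, *MYF6*, *MEF2A*, *PAX7* and *SIX4* were not listed in any library. An RNA missing from a list is not shown to be absent from that library. *MYOD1* RNA was listed from the minus strand over chr2:41415735-41425234, an interval that runs past both ends of the RefSeq gene of 1.72 kb. It had 2114 and 2178 reads in LW against 1199 and 1401 in MS. Scaled to the same total of reads on listed RNAs (RPM), this was 258 and 219 in LW against 167 and 149 in MS. Both LW libraries lay above both MS libraries, and how many listed RNAs show this was not counted. In bulk muscle, fewer cells of a type and less RNA per cell cannot be told apart.

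*MEF2D* RNA, listed from the plus strand over an interval that runs past the RefSeq gene, had 9100 and 9816 reads in LW against 5693 and 6839 in MS. This was 1112 and 987 RPM in LW against 794 and 729 in MS. *MEF2C* RNA, from the minus strand, had 26368 and 29151 reads in LW and 18281 in MS replicate 2, and was not listed in MS replicate 1, whose list starts at 432 reads. The 3 listed values were 3223, 2932 and 1949 RPM. Per kb of the listed interval, the levels of *MEF2C* were 151, 167 and 105 reads, those of *MEF2D* 130 and 140 in LW against 81.3 and 97.6 in MS, and those of *MYOD1* 223 and 229 in LW against 126 and 147 in MS. Per kb of the listed interval, which is not the RefSeq gene, *MYOD1* was the listed member with the highest level in every library. In all 3 genes the LW values lay above the MS values that were listed, which for *MEF2C* is a single value. The reads per kb are not scaled to the total of each library. How many listed RNAs show such an order was not counted. Of the 308 RNAs listed in all 4 libraries, 44.2% were called higher in LW by edgeR, with an adjusted p under 0.05.

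**Figure D3:**
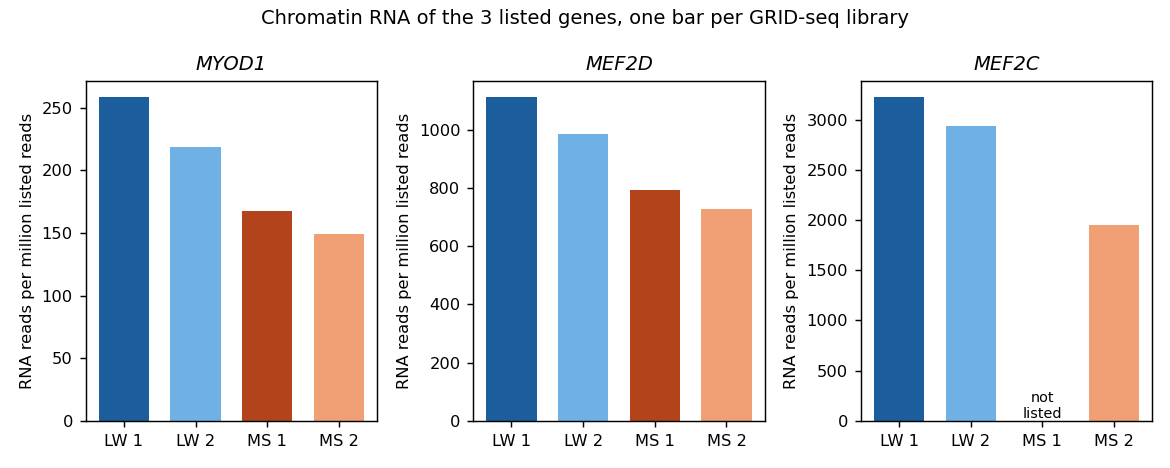
Bars give the RNA reads of *MYOD1*, *MEF2D* and *MEF2C* as RPM of the reads on listed RNAs in each GRID-seq library (vertical axis from 0, 1 bar per library). All LW bars stand above the MS bars of the same gene, and *MEF2C* was not listed in MS replicate 1.

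In edgeR, over the 308 RNAs listed in all 4 libraries, *MYOD1* was 1.47 times higher in LW (log2 difference 0.56, SE 0.042, adjusted p = 0.000267) and *MEF2D* 1.35 times higher (log2 difference 0.43, SE 0.022, adjusted p = 7.08e-05, quasi-likelihood test with Benjamini-Hochberg adjustment). These calls have to be read against the whole list: 267 of the 308 RNAs, 86.7%, passed an adjusted p of 0.05, 44.2% higher in LW and 42.5% higher in MS. RNAs that passed and rose more in LW than *MYOD1* made up 12.7% of the list, and those that rose more than *MEF2D* made up 17.2%. The median size of the log2 difference over the 308 RNAs was 0.35, below that of both genes. For *MEF2C* the log2 difference was 0.49 over the 3 libraries that list it (SE 0.012, adjusted p = 5.42e-05, edgeR), a comparison that was chosen after seeing that MS replicate 1 lacks it, where the lone MS library is assumed to vary like the LW libraries. With MS replicate 1 entered as 0, the log2 difference was 1.51 with an adjusted p of 0.912.

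Markers of the tissue were compared between the breeds on the same lists. The 7 listed muscle fibre markers summed to 142963 and 130551 RPM in LW against 121343 and 110519 in MS, of which the RNAs of the giant sarcomere proteins, *TTN* and *NEB*, made up between 89.6% and 91.5% per library. Without these 2 the other 5 summed to 12244 and 11057 RPM in LW against 12632 and 11548 in MS and overlapped, and *CKM*, one of them, was lower in LW. *CDH15*, the listed satellite cell marker, had 214 and 197 RPM in LW and was not listed in MS. The fibroblast markers, the collagen genes *COL1A1*, *COL1A2* and *COL3A1*, summed to 1262 and 1079 in LW and to 923 and 1495 in MS, without *COL3A1* in MS replicate 1, and overlapped. The part of the markers in the differences of *MYOD1*, *MEF2D* and *MEF2C* was not tested.

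The 3 RNAs spread over chromatin to different extents. The signal that the authors give per RNA and 1-kb bin is relative to the RNA's own reads, so it shows where an RNA lies and not how much of it there is. *MYOD1* RNA stayed near its listed interval. Bins of that interval and 10 kb around it held 99.8% and 99.4% of the RNA's signal in LW, against 68.1% and 95.7% in MS. Its farthest bin lay 13.8 kb away in both LW libraries, against 273 and 22.8 kb in MS. In MS replicate 1, *MYOD1* RNA was listed on 4 of the far anchors of its 12 MS loops, in MS replicate 2 on 1, and in LW on none of the far anchors of its 9 loops. The wider reach was thus seen mainly in 1 library.

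*MEF2D* RNA had 58.3% and 51.7% of its signal within 10 kb of its listed interval in LW and 78.4% and 64.6% in MS. Both LW values were below both MS values, and how many listed RNAs show this was not counted. *MEF2D* RNA was listed on 633 and 765 bins in LW against 312 and 556 in MS, and the part of this in the local share was not tested. Its farthest bin on the chromosome was 607 and 2120 kb away in LW and 1031 and 1028 kb in MS. *MEF2C* RNA spread most, with 36.4% and 34.6% of its signal within 10 kb in LW and 45.9% in MS replicate 2. Another 50.1%, 50.0% and 48.7% lay within 1 Mb, and 13.2%, 15.5% and 5.38% lay beyond 1 Mb on the same chromosome, as far as 91648 kb away in LW replicate 2. In LW replicate 1 it was also listed on 46 bins of other chromosomes, with 0.308% of its signal, and on none in the other libraries. The order *MEF2C*, *MEF2D*, *MYOD1*, from the most to the least spread, held in the 3 libraries that list all of them. Their reads and the lengths of their listed intervals followed the same order, and the part of these in the spread was not tested.

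**Figure D4:**
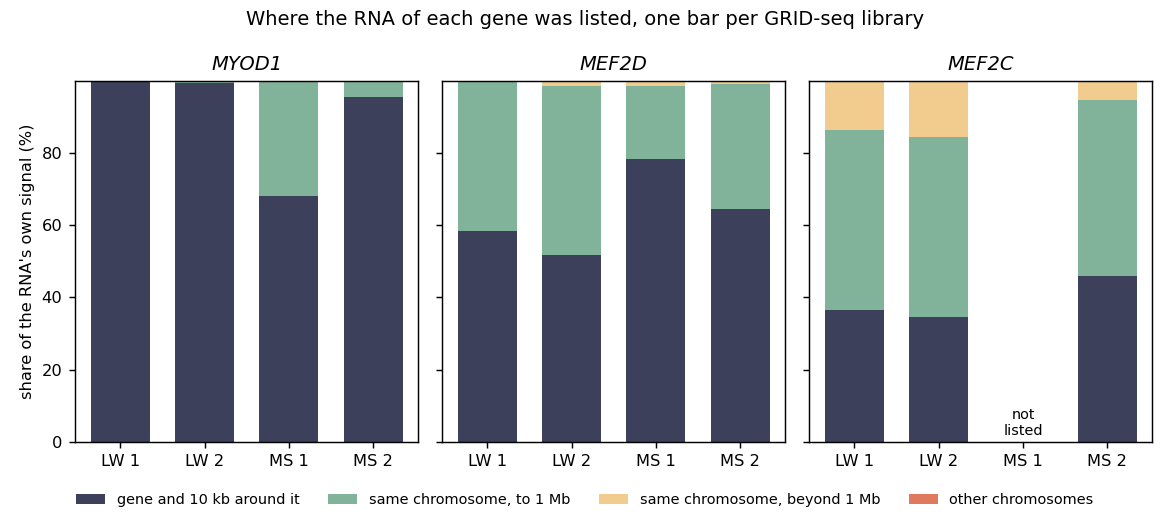
Stacked bars give the share of each RNA's own signal (vertical axis, percent), with 1 bar per GRID-seq library. The parts are the listed interval of the RNA and 10 kb around it, the same chromosome to 1 Mb, beyond 1 Mb, and other chromosomes. *MYOD1* is almost wholly local apart from MS replicate 1 at 68.1%, and *MEF2C* has the smallest local share, from 34.6% to 45.9%.

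At the gene ends, the summed signal of all RNAs followed which RNAs a library lists nearby. *MYOD1* had 16155 and 16425 in LW against 21010 and 29592 in MS, most of it from its own RNA, and both MS libraries lay above both LW libraries, as was so for 20.5% of the genes tested. *MEF2D* had 16882 and 14890 in LW against 18722 and 16687 in MS. *MEF2C* had 3158 and 4126 in LW, 0.543 in MS replicate 1, which does not list its RNA, and 5003 in MS replicate 2.

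*MYF6* showed signal from a transcript that carries no gene name. Its ends had no signal in LW replicate 1 and 24234 in LW replicate 2, against 15699 and 26010 in MS. Almost all of it came from an RNA of the plus strand that the lists give no gene name. It starts 468, 436 and 424 bases beyond the higher-coordinate end of *MYF6*, whose strand the gene table does not give. It spans 5.09, 5.12 and 5.70 kb, and had 737, 706 and 888 reads in these libraries. The lists give it a different label in each library, and it was picked out after its values were seen. The RefSeq gene LOC110260827 overlaps the 5-kb bin in which the RNA starts, and whether the RNA belongs to that gene was not tested. The same RNA reached the ends of *MYF5* with 2835, 822 and 3507.

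*PAX7* had a signal in LW replicate 2 alone, 361, and *MEF2A* had 984 in LW replicate 1 and 11.3 in MS replicate 2. *MYOG* had 73.8 and 21.0 in LW, 4.31 in MS replicate 1 and none in MS replicate 2, with both LW libraries above both MS libraries as for 16.7% of the genes tested. In LW replicate 1 and MS replicate 1 most of it came from *C1orf21* RNA, whose gene lies 11828 kb away on the same chromosome.

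RNAs of other genes that recurred at the members had low values of the signal. Since the signal is relative to each RNA's own reads, these values do not compare the amounts of different RNAs. Those listed in at least 2 libraries included *C1orf21* at *MYOG*, ENSSSCG00000048037 at *SIX4*, ENSSSCG00000048856 at *MYOD1*, ENSSSCG00000024481, the spliceosomal U4 RNA and ENSSSCG00000048856 at *MEF2D*, ENSSSCG00000048037 also at *MEF2C*, and *TTN* and ENSSSCG00000044834 at *MYF5* and *MYF6*. *TTN* codes for the giant sarcomere protein titin. The largest of these summed over its libraries was ENSSSCG00000024481 at *MEF2D*, 204, where *MEF2D* RNA itself summed to 66468, and *C1orf21* at *MYOG* and ENSSSCG00000048037 at *SIX4* followed with 76.9 and 48.0.

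No member passed the study's threshold on RNA-chromatin signal, a log2 difference above 2 with an unadjusted p under 0.05, against 15.8% of the 23302 genes tested, 7.49% higher in LW and 8.28% higher in MS. The study applied this threshold to another set of genes, those it counted as regulated by chromatin RNA. The smallest p among the members was that of *MYOG*, 0.0658 unadjusted and 0.369 adjusted in limma. No gene passed after adjustment in limma, with a smallest adjusted p of 0.108 and 3676 genes at an unadjusted p under 0.05. The median log2 difference was 3.62 over the 9 members and −0.05 over all genes, and 5 of the 9 were higher in LW. These are fitted values that depend on the pseudocount where a library lists no signal, and the members' median rested on single libraries: without MS replicate 1 it was −0.04, and without LW replicate 1 it was 0.20.

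Partners of the 9 genes were examined as a list of 37, of which 1 is not in the gene table, and which holds homeobox, EYA, ID and E protein genes, histone deacetylases and coactivators, fusion factors and muscle targets. A loop at a gene end was called for 31 of them, in all 4 libraries for 25. In the interaction score 1 of 31 passed the study's threshold, *SIX2*, of the same family as *SIX4*, with 5.21 and 7.18 in LW and 0 in both MS libraries (unadjusted p = 0.0256, adjusted p = 0.819, limma). Of all genes, 5.33% passed in either direction, and 4.32% had loops in both LW libraries and none in MS. The median log2 difference of the list was 0.32, against 0.02 over all genes.

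As chromatin RNAs, 10 partners were listed in any library and 5 in all 4, and all 5 passed in edgeR, where 86.7% of the listed RNAs did. Higher in LW were *EYA4*, a cofactor of *SIX4* and its relatives, by 0.40 on the log2 scale (adjusted p = 3.84e-06, edgeR), *NFIX*, a nuclear factor I gene, by 0.51 (adjusted p = 1.65e-05, edgeR), and *KLHL31*, a kelch protein of muscle, by 0.07 (adjusted p = 0.0378, edgeR). Lower in LW were *CKM*, muscle creatine kinase, at −0.70 (adjusted p = 3.56e-06, edgeR), and *TEAD1*, a factor that binds MCAT elements, at −0.14 (adjusted p = 0.000499, edgeR).

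In the signal at gene ends, 8 of 35 partners passed the study's threshold, 4 in each direction, where 15.8% of all genes passed, and none passed after adjustment in limma. Among those higher in LW were *CDH15*, *CHRNA1*, a subunit of the acetylcholine receptor, and *MSTN*, the growth inhibitor myostatin. *CDH15*, whose RNA was listed in LW alone, had 31737 and 39918 in LW against 0.194 and 20.4 in MS. *CHRNA1* had 18 and 43.4 in LW, *MSTN* had 24.9 and 17.1, and neither had listed signal in MS. Those higher in MS were the inhibitors of E proteins *ID1* and *ID2*, the class IIa deacetylase *HDAC7*, and *VGLL2*, a TEAD cofactor. *ID1* had 1935 and 2875 in MS, *ID2* had 34.0 and 69.0, and neither had listed signal in the LW libraries. *HDAC7* and *VGLL2* RNAs were listed in both MS libraries, at 2211 and 2678 reads and at 984 and 1070 reads, and in neither LW library. Their signal was 763 and 487 in LW against 20949 and 18585 in MS for *HDAC7* and 184 and 25.5 in LW against 38871 and 39467 in MS for *VGLL2*. The median of the list was −0.49, against −0.05 over all genes.

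The genes whose interaction scores were most like those of *SIX4* over the 4 BL-HiChIP libraries, by the Euclidean distance of log2(score + 1), were LOC106504720 at a distance of 0.479, *PPP1R3C*, a glycogen-targeting subunit of protein phosphatase, at 0.513, and *RNF150*, a RING finger gene, at 0.518. *PPP1R3C* had a score of 145 and 285 in LW against 124 and 264 in MS. This likeness rests on 4 values per gene.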

How the data were processed

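BL-HiChIP loops were called by the authors in each library with FitHiChIP at 5 kb after linker trimming, BWA-MEM mapping to Sscrofa11.1 and deduplication with Pairtools. The value deposited per loop was read as a p-value after adjustment (FDR), since the lists end just under 0.01. GRID-seq reads were mapped by the authors with Bowtie2 (2.2.5 in the submitters' processing notes), and chromatin-enriched RNAs were selected. The counts the authors deposited are RNA reads per listed RNA, and the deposited signal is background-corrected per RNA and 1-kb bin. The lists have no column names, so these readings come from the values, and the labels and the methods differ in the cross-linking described for GRID-seq. The number of valid BL-HiChIP pairs was not analysed here.

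Gene positions came from a RefSeq table of Sscrofa11.1, which gives no strand, so both gene ends were used. Scores and signals were quantile-normalized and compared as log2(value + 1) with limma 3.58.1, where a fold change understates the change of low genes and tied ranks can give a value above 0 to a gene listed at 0, and RNA reads with edgeR 4.0.16 (TMM, quasi-likelihood), in R 4.3.3. Adjusted p-values are Benjamini-Hochberg over all genes or RNAs tested. DESeq2 1.42.0 was an alternative, as were other normalizations, pseudocounts, filters, windows, a stricter FDR, a replicate block and leaving out each library. The tests were tested on simulated data, where the fits came close to the known sizes, but limma after adjustment called none of the changed genes in signal and, in the score, only those with the larger change, so few calls after adjustment say little about these measures. Python 3.11.15 was used for the rest. The members, the partner list and the markers were chosen with earlier results of these data known. The genes named were all members, genes with an end at a far anchor of a member's loop called in at least 2 libraries, at most 3 other RNAs per member listed in at least 2 libraries, partners that passed the study's threshold, lay within 100 kb of a member or were reached by its loops, and the 3 genes most like *SIX4*, the member with the highest mean score. No genome sequence was used. Alternatives on far anchors, on anchors 1 bin away and on the 3 libraries that list *MEF2C* were chosen after seeing the data. Results for 2 of the genes named by this rule, and the values at *SIX4* that rest on one of them, are not reported here.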

Additional observations from a re-analysis of the deposited data

How the results depend on the processing

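The number of genes past the study's threshold in the interaction score, 822, was 1388 with a pseudocount of 0.1, 1289 with the replicate block and 246 with DESeq2 on the rounded score, and 836 to 1594 without one library (LW replicate 1: 1461, MS replicate 2: 1594). The share of these calls that was higher in LW, 53.0%, was 76.9% without normalization and 70.5% with libraries scaled to the same total, settings that moved the median of all genes to 0.38 and 0.15, and 31.1% with a pseudocount of 0.1. Members past it numbered 2 with the replicate block (*MEF2D* was added), 0 with the window of 5 kb, and 1 to 3 without one library (*MEF2C* and *MEF2D* without LW replicate 2). In the RNA-chromatin signal, members past the threshold numbered 1 without normalization and 1 with the replicate block (*MYOG* in both), 1 without RNAs that overlap the gene (*MEF2D*), and 0 to 2 without one library (*PAX7* and *SIX4* without LW replicate 1, *MYF5* and *MYF6* without LW replicate 2, *MEF2C* without MS replicate 2). Genes past the threshold in the signal went from 3676 to 2546 with the replicate block. The share of them that was higher in LW, 47.5%, was 63.8% without LW replicate 1, 62.4% without LW replicate 2, 31.8% without MS replicate 1 and 34.9% without MS replicate 2. In the reads, *MYOD1* and *MEF2D* were higher in LW with an adjusted p under 0.05 in every alternative run in edgeR and DESeq2, where 227 to 295 RNAs passed, 278 of them with the replicate block. Same-numbered libraries of the 2 breeds deviated together in reads (r = 0.939), less so in score (r = 0.354), and not in signal (r = −0.0062). The labels do not say that a number marks a shared batch, so the pairing stays a hint from 2 pairs. Loops of the members numbered 114 in LW and 94 in MS with the window of 5 kb, and 19 and 20 when called in both libraries, against 66 and 58. The share of MS loops also in LW was 87.9% with each anchor at most 1 bin away.

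Differences that changed direction were those of genes below the threshold, and the cause was not tested beyond the setting itself. In the score, *MYOD1* was −0.068 with libraries scaled to the same total and −0.11 with the window of 5 kb, and without one library it ran from −0.21 (LW replicate 2) to 0.23 (LW replicate 1), with −0.16 for MS replicate 2. *MEF2C* ran from −2.65 (LW replicate 2 left out) to 0.10 (LW replicate 1), *MEF2D* from −5.12 to 0.25 and *MYF6* from −0.97 to 0.37, with the same libraries left out, and *MYF6* was 0.13 when MS replicate 2 was dropped. In the signal, the ranges were −1.65 (LW replicate 1) to 8.60 (LW replicate 2) for *MEF2A*, −10.8 (LW replicate 2) to 0.20 (LW replicate 1) for *MYF5*, −14.32 to 0.18 for *MYF6* with the same libraries, and −0.060 (MS replicate 1) to 11.12 (MS replicate 2) for *MEF2C*, which was −1.14 when RNAs that overlap the gene were dropped. The lists have cutoffs: GRID-seq lists start at 432 to 455 reads, and loops are listed only below an FDR of 0.01. *MEF2C* RNA had 18281 reads in MS replicate 2 and was not listed in MS replicate 1, and the reason was not tested.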

Other observations

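Loops that started between the ends of the long genes, and not at the ends, gave a different picture of the MEF2 genes and *PAX7*. *MEF2C* had 26 and 20 such loops in LW against 25 and 20 in MS, with a summed strength of 114 and 134 in LW against 111 and 134 in MS and with values that overlapped between the breeds. Of these, 18, 14, 17 and 13 had both anchors inside the gene, in LW replicates 1 and 2 and MS replicates 1 and 2 in turn, and the others had 1 anchor outside. Loops inside *MEF2C* of 105 kb, at 4.07, 5.02, 3.88 and 5.63, and of 5 kb, at 5.28, 9.57, 4.63 and 11.07, and a loop of 635 kb out of the gene, at 3.02, 3.69, 2.88 and 4.62, were called in all 4 libraries. A loop of 135 kb within the gene was called at 10.4 and 16.5 in LW alone, and the MS libraries had loops from the same bin to the bins on either side of its far anchor, of 130 kb at 5.38 in replicate 1 and of 140 kb at 19.9 in replicate 2.

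*PAX7* had 10 and 8 loops between its ends in LW against 2 and 5 in MS, with a summed strength of 45.2 and 55.1 in LW against 22.2 and 27.9 in MS. The LW values lay above the MS values, with no test, and how many genes show this between their ends was not counted. For scores at gene ends, both LW libraries lay above both MS libraries in 21.1% of the genes tested. The loop of 90 kb that left the gene towards higher coordinates was called at 10.2 and 16.2 in LW, at 4.28 in MS replicate 2, and not in MS replicate 1. *MEF2A* had 3 and 1 loops between its ends in LW and none in MS, the strongest at 3.90. *MEF2D* had 8 and 10 in LW against 9 and 5 in MS, and a loop of 25 kb to LOC106510129 was called at 47.0, 15.8 and 29.5 in the same 3 libraries that called its loop of 5 kb. LW replicate 1 reached the same far anchor from the next bin of *MEF2D*, over 30 kb at 9.62.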
